A study of Mus musculus with 2 samples.

Results

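The 9 genes described here, Cux1, Cux2, Rorb, Tbr1, Foxp2, Bcl11b, Neurod2, Neurod6 and Mef2c, encode transcription factors used to tell the layers and subtypes of cortical glutamatergic neurons apart. They were chosen by symbol from the 31053 genes of the count matrices, and all 9 were found. The matrices held nuclei of the entorhinal cortex of male APP/PS1 mice, which carry mutant human amyloid precursor protein and presenilin transgenes driven by the mouse prion promoter, at 18 months of age. Mice drank alkaline water with vehicle (DMSO) or with the N-acyl amino acid C18:1-Leu (OLE) at 25 mg/kg/day from 15 months on. Tissue of 5 mice was pooled into 1 single-nucleus library per treatment, so that both libraries carry the transgenes and no wild-type library was analysed here. With 1 library per treatment there was no replicate and no test. The intervals given below are exact 95% intervals that cover counting error only, not the variation between nuclei, mice or libraries.

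Cortical glutamatergic neurons are laid down in layers, and combinations of transcription factors set and keep their identity. CUX1 and CUX2 are homeodomain proteins of upper-layer neurons, and the nuclear receptor RORB marks the middle layers. In deep layers, TBR1 and FOXP2 mark corticothalamic neurons, and BCL11B (CTIP2) marks neurons that project below the cortex. NEUROD2 and NEUROD6 are basic helix-loop-helix factors of glutamatergic neurons as a class, and MEF2C is a MADS-box factor that links activity to synapse number and also acts in microglia and interneurons.

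The vehicle library had 6745 nuclei and 70845739 unique molecular identifiers (UMIs, each counting 1 captured transcript), and the OLE library 6173 nuclei and 69485537 UMIs. After likely doublets were left out, 6414 and 5884 nuclei formed 24 clusters, computed without the 9 genes. Glutamatergic-like nuclei (11 clusters) numbered 1961 in the vehicle and 1910 in the OLE library, with median depths of 20916 and 19203.5 UMIs, and GABAergic-like nuclei 325 and 351. Smaller classes were oligodendrocyte-like (586 and 529), microglia-like (339 and 270), astrocyte-like (121 and 136), oligodendrocyte precursor (OPC)-like (101 and 84), vascular leptomeningeal-like (87 and 85) and endothelial-like nuclei (21 and 41), the last with mural markers as well. The other 4 clusters were left unnamed. They held 2873 and 2478 nuclei with median depths of 2294 and 4400.5 UMIs, and those with the most nuclei split by library, with 2258 vehicle against 317 OLE nuclei in one and 210 against 1708 in the next. Between the libraries 14 barcodes were shared, and without them the counts of members past the threshold in glutamatergic-like and GABAergic-like nuclei were the same.

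Levels are given as CPM, the UMIs of a gene per 1000000 UMIs of the same nuclei. The members differ widely in length, and 3′ libraries of nuclei also count intronic priming, so their levels are set side by side only per kilobase of gene. In glutamatergic-like nuclei, the 3.442 kb Neurod6 gave 7.88 CPM per kilobase in the vehicle and 8.72 in the OLE library. Mef2c (163.047 kb) gave 6.73 and 6.31, and Neurod2 (4.234 kb) 6.32 and 6.52. Tbr1 (11.185 kb) gave 1.44 and 1.63, and Foxp2, which spans 540.629 kb, was lowest of the 9 at 0.181 and 0.170. Counts from the 3′ end are not proportional to gene length, so this order depends on the scaling and is not read as relative expression. None of the members overlapped another counted gene on its own strand (GRCm38, GENCODE annotation). Cux1 (chr5:136248135-136567490, minus strand) and Cux2 (chr5:121856366-122050102, minus strand) are paralogs on the same chromosome, and Neurod2 (chr11:98325415-98329648) and Neurod6 (chr6:55677822-55681263), both on the minus strand, are paralogs on different ones.

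The promoter windows of Neurod2 and Neurod6 are shown because these paralogs, both low in GABAergic-like nuclei, had different patterns over the glutamatergic clusters. Each runs 5′ to 3′ from 250 bases before to 50 bases after the RefSeq start (GRCm38.p6), at chr11:98329596-98329895 and chr6:55681214-55681513, both on the minus strand. Capitals mark CAGATG, an E-box of the kind NeuroD proteins bind.
Neurod2: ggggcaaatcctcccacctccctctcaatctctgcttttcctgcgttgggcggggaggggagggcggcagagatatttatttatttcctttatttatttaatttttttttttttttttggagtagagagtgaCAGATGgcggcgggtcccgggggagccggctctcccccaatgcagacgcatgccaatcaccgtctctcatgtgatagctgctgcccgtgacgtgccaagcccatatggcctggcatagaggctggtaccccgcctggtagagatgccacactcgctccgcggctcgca
Neurod6: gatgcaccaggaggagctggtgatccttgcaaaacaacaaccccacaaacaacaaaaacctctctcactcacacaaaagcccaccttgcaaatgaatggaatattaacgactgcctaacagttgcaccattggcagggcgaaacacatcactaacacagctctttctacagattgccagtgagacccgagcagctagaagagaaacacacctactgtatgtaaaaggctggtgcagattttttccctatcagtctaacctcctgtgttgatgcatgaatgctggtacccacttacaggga
CAGATG was searched on both strands (CATCTG on the other) and was found once in the Neurod2 window, at base 133, and not in the Neurod6 window. It occurred in 17.2% of all 32851 promoter windows of the same length. The TATA box TATAAA, searched on both strands, was found in 13.6% of all windows and in neither of these. RefSeq windows matched 8 of the 9 members; Foxp2 had none.

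Across cell types, 4 of the members were higher in a non-neuronal type than in the glutamatergic-like and GABAergic-like classes as wholes. Rorb was highest in astrocyte-like nuclei, at 1688 CPM (1598 to 1782) in the vehicle and 1673 (1588 to 1761) in the OLE library against 162 and 154 in glutamatergic-like nuclei. Foxp2 was highest in vascular leptomeningeal-like nuclei, the fibroblast-like cells of the brain's coverings, at 1544 (1451 to 1642) and 1563 (1472 to 1658) against 97.6 and 92.1 in glutamatergic-like nuclei. Cux1 and Mef2c were highest in microglia-like nuclei, Cux1 at 602 (552 to 656) and 561 (507 to 618) against 206 and 200 in glutamatergic-like nuclei, and Mef2c at 1742 (1656 to 1832) and 1729 (1635 to 1828) against 1098 and 1030. In each of these 4 cases the interval lay above that of the glutamatergic-like nuclei in both libraries. For Mef2c this holds for the class only. In its highest glutamatergic-like cluster, described below, it was at 2121 and 2039 CPM, above its microglia-like level. Cux1 was also above its glutamatergic-like level in astrocyte-like nuclei, at 240 and 224 CPM on 187 and 196 UMIs. In vascular leptomeningeal-like nuclei Cux1 was at 236 and 238 CPM on 157 and 167 UMIs.

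**Figure D1:**
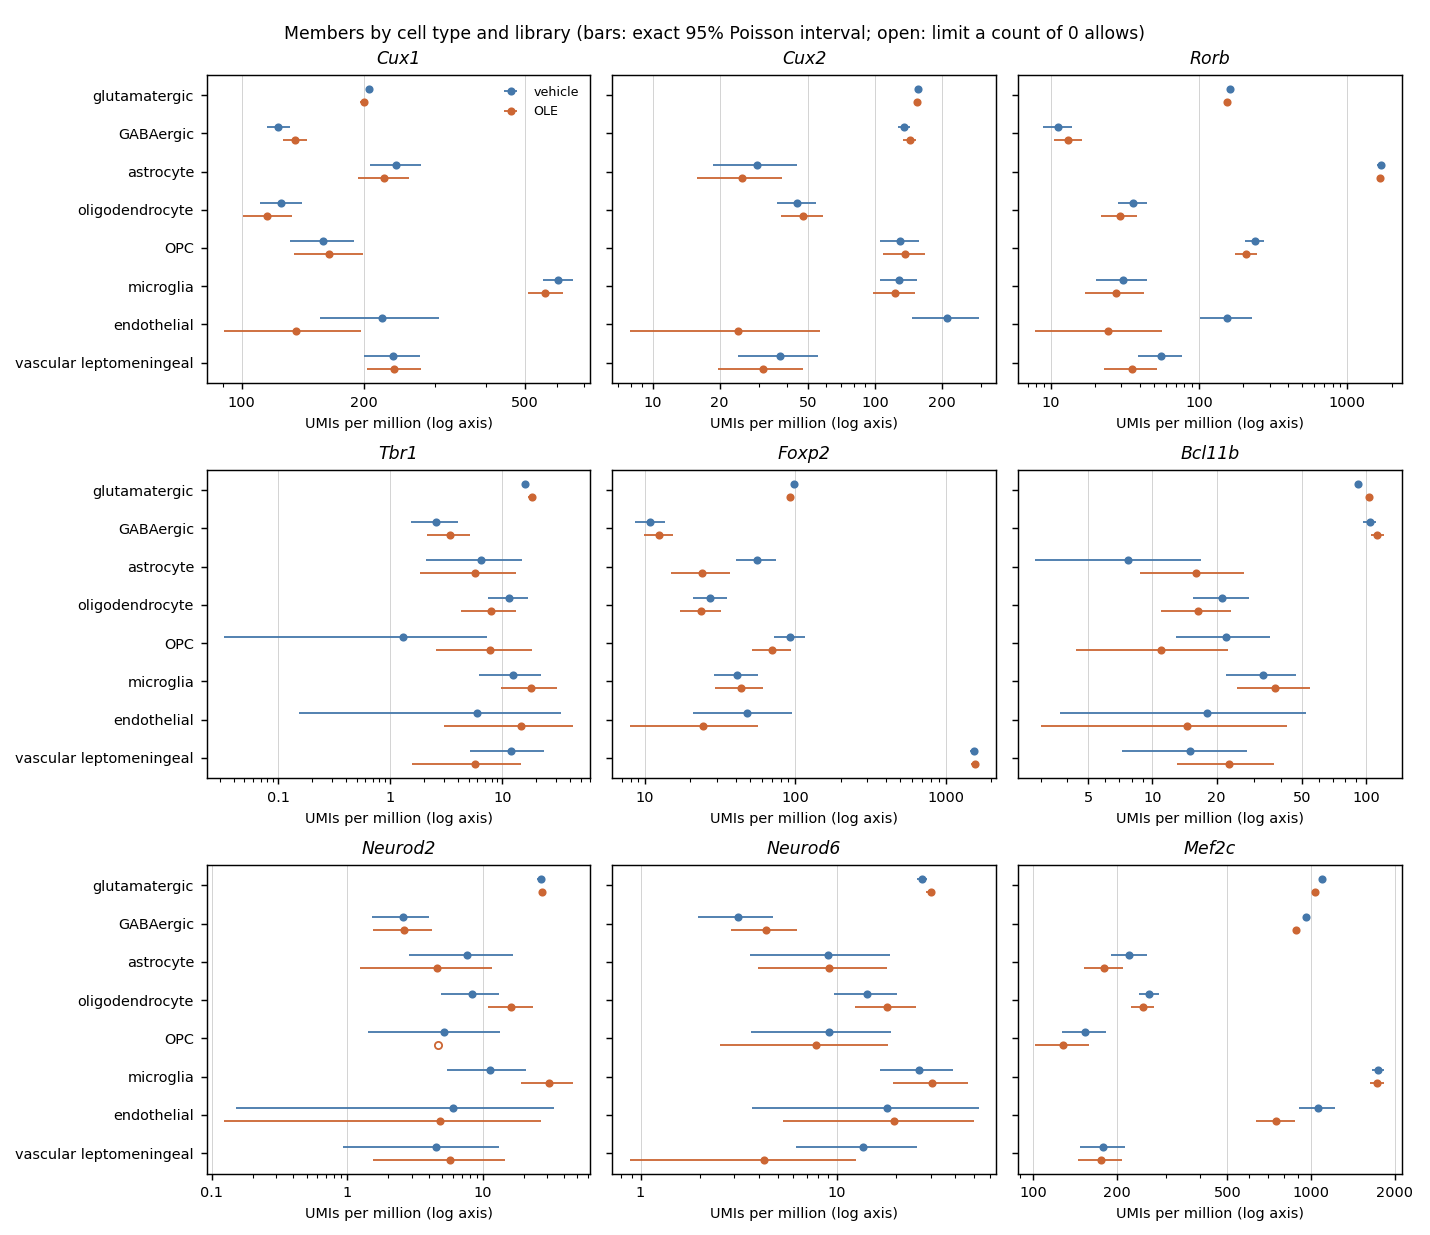
Level of each of the 9 members in 8 cell types. The x axis gives CPM on a log axis, points stand for 1 library each (blue vehicle, orange OLE), bars are exact 95% Poisson intervals, and the open point is the limit that a count of 0 allows. Rorb stands highest in astrocyte-like nuclei (1688 and 1673), Foxp2 in vascular leptomeningeal-like nuclei (1544 and 1563), and Cux1 and Mef2c in microglia-like nuclei.

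These levels were compared at one depth, because a nucleus with more UMIs shows a gene more often. Thinned to 1000 UMIs per nucleus, Rorb was found in 73.6% (64.8 to 81.2) of vehicle and 66.2% (57.6 to 74.1) of OLE astrocyte-like nuclei, and in 11.4% and 9.53% of glutamatergic-like nuclei. Foxp2 was found in 52.9% of vascular leptomeningeal-like nuclei in both libraries, against 6.37% and 7.23% of glutamatergic-like nuclei. Cux1 was found in 43.3% and 41.4% of microglia-like nuclei against 17.2% and 17.3% of glutamatergic-like nuclei, and Mef2c in 78.3% and 78.7% against 56.7% and 53.7%. Without thinning, Rorb was seen in 98.3% and 98.5% of astrocyte-like nuclei. At equal depth, too, each of the 4 was found more often in that cell type than in glutamatergic-like nuclei.

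Within the leptomeningeal-like class the Foxp2 counts were uneven. The cluster led by Bnc2, Slc47a1 and Adamtsl3 (88 nuclei) had 2280 CPM in the vehicle and 2154 in the OLE library, and the cluster led by Ranbp3l, Bmp6 and Slc6a13 (84 nuclei) 374 and 333. Rorb had a second non-neuronal place in OPC-like nuclei, at 238 (205 to 275) and 208 (174 to 247) CPM. Cux2 was also present in OPC-like nuclei, at 130 (106 to 158) and 136 (109 to 168), close to its GABAergic-like level of 135 (127 to 144) and 143 (134 to 152). In microglia-like nuclei Cux2 was at 128 and 122, or 81.9% and 79.6% of its glutamatergic level. Foxp2 in OPC-like nuclei was at 92.2 and 70.4, or 94.5% and 76.5%, on 71 and 45 UMIs. Single glutamatergic markers reached 148% and 66.5% of their glutamatergic level in microglia-like nuclei and 55.2% and 55.0% in OPC-like nuclei.

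Among the interneurons (GABAergic-like nuclei), 3 members ran close to or above the glutamatergic level and the other 5 besides Cux1 ran far below it. Bcl11b, which interneurons also use, was at 104 (96.6 to 112) and 113 (105 to 122) CPM against 91.2 and 103 in glutamatergic-like nuclei. Mef2c was at 956 (934 to 980) and 883 (860 to 906), and Cux2 at 86.2% and 92.9% of its glutamatergic level. Cux1 was at 59.7% and 67.5%. Tbr1 was at 2.56 and 3.41, Neurod2 at 2.56 and 2.64, and Neurod6 at 3.13 and 4.34 CPM, each between 9.55% and 18.7% of the glutamatergic level, and Rorb and Foxp2 lay between 6.94% and 13.5% of it. The 2 GABAergic-like clusters differed: in the vehicle library, that led by Lhx6 (437 nuclei over both libraries) had 1115 Mef2c and 94.3 Bcl11b CPM, and that led by Adarb2 and Vip (239 nuclei) 619 and 125.

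Low counts of glutamatergic genes were found in all cell types, which sets a background for reading the members there. In oligodendrocyte-like nuclei, the 12 glutamatergic markers summed to 20.4% and 17.7% of their glutamatergic level (single markers 13.4% to 85.8% in the vehicle and 13.0% to 47.1% in the OLE library). There, Rorb stood at 22.2% and 19.0%, Foxp2 at 27.8% and 25.6%, Mef2c at 23.8% and 24.1%, and Bcl11b at 23.2% and 15.8% of their glutamatergic level, within the range of those markers, and such counts were not read as expression. Tbr1, Neurod2 and Neurod6 were at 71.7%, 31.0% and 52.6% of it in oligodendrocyte-like nuclei of the vehicle library, on 25, 18 and 31 UMIs. In the OLE library they were at 43.2%, 59.1% and 59.9%, and there Neurod2 and Neurod6 lay above the highest marker. Neurod2 was not found in the 84 OPC-like nuclei of the OLE library, which allows a level of up to 4.70 CPM, against 4 UMIs in the vehicle library. In microglia-like nuclei Neurod2 had 10 UMIs in the vehicle and 22 in the OLE library, 11.3 (5.44 to 20.9) and 30.6 (19.2 to 46.3) CPM. The glutamatergic markers summed there to 29.9% and 26.7% of their glutamatergic level, and their part in these counts was not tested.

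Over the 11 glutamatergic-like clusters, the members differed in pattern, and 8 of the 9 had the same highest cluster in both libraries. Each cluster is called by 2 of its leading genes. Of the layer lists, all 7 corticothalamic layer 6 markers were raised in the Hs3st4-Sulf1 cluster and all 7 subcerebral layer 5 markers in Stac-Erg. In Tmc1-Clec18a 6 of 7 superficial layer 2/3 markers were raised, and in Rspo1-Kcnh5 5 of 6 mid-layer markers. Hmga2-Sntb1 had 6 of 7 near-projecting markers raised, and Cpa6-Lef1 all 4 markers of Reln-rich entorhinal layer 2 neurons. Atp10b-Rph3al and Igdcc3-Pappa had 4 and 3 near-projecting markers raised and Cfap52-Plch1 3 subcerebral ones, and Dnah14-Scube1 and Cdc14a-Wfs1 had fewer than 3 of any layer list. In addition, 3 superficial markers were raised in Stac-Erg and 4 corticothalamic ones in Hmga2-Sntb1. Of lists for other regions, dentate granule markers were raised in Stac-Erg (5 of 9) and Tmc1-Clec18a (4 of 9), hippocampal pyramidal ones in Stac-Erg (3 of 8) and striatal projection ones in Cdc14a-Wfs1 (3 of 9), and their part in the levels and ratios of these clusters was not tested. No list holds a member. The lists were chosen with earlier results of these data known. Some hold genes that name these clusters, such as Hs3st4, Stac, Rspo1 and Lef1, so raised markers are no independent support for a layer. Per library a cluster had 42 to 373 nuclei.

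**Figure D2:**
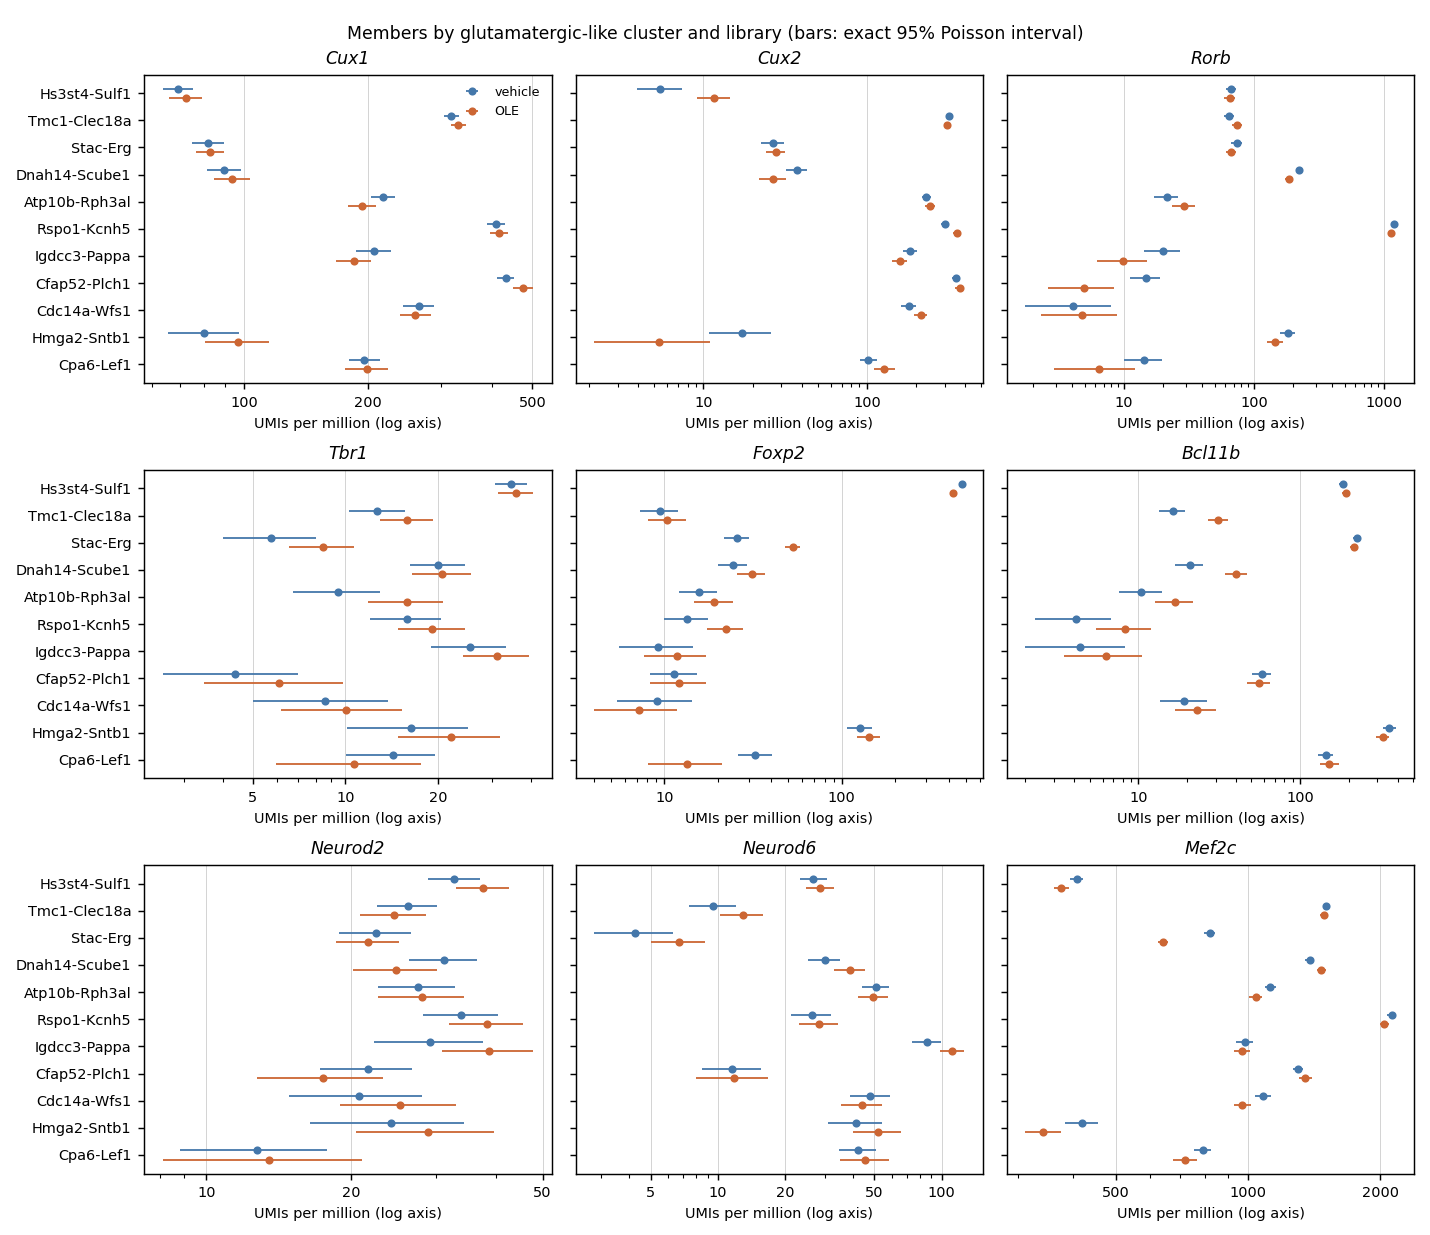
Level of each of the 9 members in the 11 glutamatergic-like clusters, each called by 2 leading genes. The x axis gives CPM on a log axis, points stand for 1 library each (blue vehicle, orange OLE) and bars are exact 95% Poisson intervals. Rorb stands alone in Rspo1-Kcnh5 (1200 and 1137) and Foxp2 in Hs3st4-Sulf1 (476 and 424), while Neurod2 varies least.

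Cux1 and Cux2 had the same 3 highest clusters, of which Tmc1-Clec18a had most superficial markers raised, while Rspo1-Kcnh5 had 2 of 7 and Cfap52-Plch1 1 of 7. Cux1 was highest in Cfap52-Plch1 at 431 (410 to 452) and 475 (449 to 502) CPM, followed by Rspo1-Kcnh5 at 408 and 415 and Tmc1-Clec18a at 318 and 331, and lowest in Hs3st4-Sulf1 at 69.3 (63.6 to 75.5) and 72.4 (66.0 to 79.2). Cux2 had its 3 highest clusters among the same ones, at 350 and 371 in Cfap52-Plch1, 320 and 310 in Tmc1-Clec18a and 299 and 356 in Rspo1-Kcnh5. Its range was wider than that of Cux1, since it fell to 5.44 (3.92 to 7.36) and 11.6 (9.11 to 14.5) in Hs3st4-Sulf1 and to 17.2 and 5.32 in Hmga2-Sntb1. The highest Cux2 cluster was 64.3 and 69.7 times the lowest, against 6.21 and 6.56 times for Cux1. At 5000 UMIs per nucleus, Cux2 was found in 82.7% and 78.7% of Cfap52-Plch1 nuclei and in 2.45% and 2.92% of Hs3st4-Sulf1 nuclei.

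Rorb had the widest range of the 9 over these clusters. It reached 1200 (1165 to 1236) and 1137 (1102 to 1174) CPM in the mid-layer-like Rspo1-Kcnh5 cluster, where 95.4% and 96.6% of nuclei had it at 5000 UMIs. The next cluster, Dnah14-Scube1, had 224 (211 to 238) and 186 (173 to 199), in 31.5% and 27.7% of its nuclei, and Hmga2-Sntb1 182 and 146, of which 5 nuclei per library held 62.2% and 48.4% of the UMIs, so that without them its level was 75.4 and 81.7. The lowest was Cdc14a-Wfs1 at 4.04 and 4.77, on 8 and 10 UMIs. The Hs3st4-Sulf1, Stac-Erg and Tmc1-Clec18a clusters lay between 64.3 and 74.2 in both libraries, and neighbours among them had overlapping intervals. Over both libraries the highest Rorb cluster was at 7.40 times the class level, against 4.76 times for Foxp2. Without doublet removal it was at 3.15 times, below Foxp2 at 4.73, Bcl11b at 3.54 and Neurod6 at 3.39, and at resolution 0.8, a finer clustering, Rorb was at 7.37 and Foxp2 at 9.02.

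Foxp2 and Bcl11b were highest in clusters with deep-layer markers raised, in different order, but Bcl11b was neither confined to such clusters nor high in all. Foxp2 was at 476 (461 to 492) and 424 (409 to 440) CPM in Hs3st4-Sulf1, and at 126 (108 to 147) and 141 (122 to 163) in Hmga2-Sntb1, or 86.2 and 87.5 there without the 5 nuclei per library that had the most. All other clusters were at 52.9 or less. Bcl11b was highest in Hmga2-Sntb1 at 356 (324 to 390) and 323 (293 to 355), then in Stac-Erg at 224 and 215, in Hs3st4-Sulf1 at 184 and 193 and in the Reln-rich Cpa6-Lef1 cluster at 144 and 152. It was lowest in Rspo1-Kcnh5 (4.10 and 8.25) and Igdcc3-Pappa (4.38 and 6.30), although near-projecting markers were raised in Igdcc3-Pappa as in Hmga2-Sntb1, where Bcl11b was highest. Atp10b-Rph3al, which also had near-projecting markers raised, was at 10.4 and 16.7.

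A finer clustering showed that the Foxp2-rich cluster held 2 kinds of nuclei. At resolution 0.8 it split into a part led by Syt6 and Trbc1 and a part led by Pappa2 and Cobll1. The Syt6-Trbc1 part (136 vehicle and 131 OLE nuclei) had 901 and 802 Foxp2, 9.80 and 8.81 Rorb and 799 and 730 Mef2c CPM. The Pappa2-Cobll1 part (237 and 216 nuclei) had 181 and 193 Foxp2, 107 and 99.6 Rorb and 137 and 161 Mef2c. Bcl11b (166 and 177 against 196 and 202) and Tbr1 (40.8 and 42.9 against 30.1 and 31.4) differed less between them. Of the fine clusters whose nuclei came mostly from Stac-Erg, but that also held nuclei of other clusters, Otof-Dach1 had 151 and 85.8 Cux2 and 79.2 and 99.9 Bcl11b CPM, and Erg-Stac 9.80 and 11.9 Cux2 and 274 and 298 Bcl11b. These splits were made on the same counts and are given as descriptions.

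Tbr1 was spread more evenly than the other deep-layer members. It was highest in Hs3st4-Sulf1 at 34.5 (30.5 to 38.9) and 35.7 (31.3 to 40.6) CPM and lowest in Cfap52-Plch1 at 4.38 (2.55 to 7.01) and 6.07 (3.47 to 9.85). Igdcc3-Pappa followed at 25.3 and 31.0, and Dnah14-Scube1 had 20.0 and 20.6. All 10 neighbouring pairs in its order overlapped in their intervals, in each library.

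The NeuroD paralogs did not share a pattern. Neurod2 was the most even of the 9, from 12.7 (8.81 to 17.8) and 13.5 (8.11 to 21.0) CPM in Cpa6-Lef1 to 33.9 (28.2 to 40.4) in Rspo1-Kcnh5 in the vehicle and 38.7 (31.0 to 47.8) in Igdcc3-Pappa in the OLE library, and its 10 neighbouring pairs all overlapped in each library. Neurod6 ranged 20.0-fold and 16.7-fold, from 4.27 (2.79 to 6.26) and 6.70 (5.03 to 8.74) in Stac-Erg to 85.7 (73.5 to 99.3) and 112 (98.1 to 126) in Igdcc3-Pappa. Atp10b-Rph3al (50.7 and 49.3), Cdc14a-Wfs1 (48.0 and 43.9), Cpa6-Lef1 (42.3 and 45.4) and Hmga2-Sntb1 (41.3 and 51.7) formed a second level with overlapping intervals between neighbours. The superficial Tmc1-Clec18a cluster was low in Neurod6, at 9.52 and 12.9.

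Mef2c was present in every glutamatergic-like cluster and varied 5.20-fold and 5.94-fold among them. It was highest in Rspo1-Kcnh5 at 2121 (2074 to 2169) and 2039 (1991 to 2087) CPM. The lowest levels were 408 and 377 in Hs3st4-Sulf1 and 419 and 343 in Hmga2-Sntb1. At 5000 UMIs it was found in all nuclei of Rspo1-Kcnh5 and in 64.9% and 62.7% of those of Hs3st4-Sulf1.

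The profiles of the members were compared with each other and with 10278 other genes over the 11 clusters, by Pearson's r of log2(CPM + 10). These are descriptions over clusters of the same libraries, and genes were ranked by the smaller of the r values of both libraries. Cux1 and Cux2 were the most alike pair (r = 0.965 in the vehicle and 0.934 in the OLE library), and Cux2 and Foxp2 (-0.844 and -0.831) and Cux2 and Bcl11b (-0.748 and -0.758) the most opposed to each other among the layer markers. Foxp2 and Bcl11b ran together (0.701 and 0.679), and both ran against Mef2c (-0.838 and -0.758, and -0.809 and -0.805). Neurod2 and Neurod6 had r of 0.030 and 0.387.

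By this rank, the gene most like Cux1 was Gm16599 (r = 0.986 and 0.990), annotated as an antisense transcript inside the Cux1 gene (chr5:136274996-136417894) on the opposite strand, and it also ranked first for Cux2 (0.958 and 0.964), although Cux1 was above it in the vehicle library. Most like Rorb was Mark1 (0.929 and 0.887), like Tbr1 Ppm1a (0.811 and 0.819, with Ptgr2 at 0.830 and 0.807), like Foxp2 Glra2 (0.944 and 0.952) and Cdh18 (0.955 and 0.941), and like Bcl11b Map1b (0.941 and 0.952) and Crym (0.918 and 0.930). Most like Neurod2 was Gm15997 (0.95 and 0.907), like Neurod6 Ccdc129 (0.891 and 0.876, with Hunk at 0.904 and 0.871), which lies 156 kb from it on chromosome 6, and like Mef2c Slc30a3 (0.938 and 0.933), the zinc transporter of glutamatergic synaptic vesicles.

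Co-detection in single nuclei, taken from the same counts, followed these profiles over all clusters but not within them. In 1930 vehicle and 1892 OLE glutamatergic-like nuclei thinned to 5000 UMIs, Cux2 and Foxp2 were found together in 48 and 67 nuclei, 0.335 and 0.464 times the number that their separate shares give. Cux2 and Bcl11b were found together 0.384 and 0.394 times as often. Foxp2 and Bcl11b were together in 163 and 174 nuclei, 1.83 and 1.56 times the expected number, and Cux1 and Cux2 in 542 and 486, 1.34 and 1.37 times. When the expected number was taken within each cluster, these 4 ratios were between 0.896 and 1.11. Of 36 pairs, 13 were above 1 and 17 below 1 in both libraries.

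**Figure D3:**
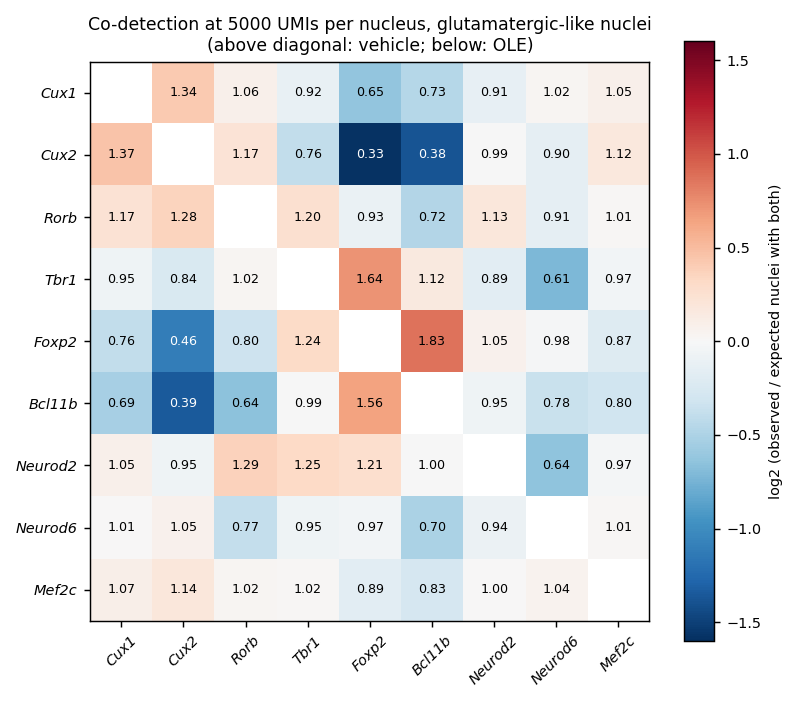
Observed over expected number of glutamatergic-like nuclei with both members of a pair, at 5000 UMIs per nucleus. Cells above the diagonal are the vehicle and below it the OLE library, and the color gives the log2 of the printed ratio. Cux2 with Foxp2 (0.335 and 0.464) and with Bcl11b (0.384 and 0.394) are the lowest, and Foxp2 with Bcl11b (1.83 and 1.56) the highest.

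The comparison of OLE with vehicle describes how the 2 libraries differed in each cell compartment, and treatment and library cannot be told apart in it. In glutamatergic-like nuclei as a class, 0 of the 9 members differed by more than 0.25 on the log2 scale, where 23.8% of the 14200 genes with at least 100 UMIs did (20.7% higher and 3.17% lower in the OLE library). The median log2 ratio was -0.025 over the members and 0.067 over all these genes. A call here means only that 2 libraries differed past a fixed size. Shares over all genes, here and for the other cell types and regulators below, were not taken among genes with counts like those of the members. Genes with few UMIs pass 0.25 more easily by counting error, so the 0 is not read as particular to the members.

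Bcl11b and Tbr1 had the largest positive values of the members, at percentiles 70.5 and 70.7 of all genes with at least 100 UMIs. Bcl11b had 4170 UMIs or 91.2 CPM in the vehicle and 4290 or 103 CPM in the OLE library, a log2 ratio of 0.18 (0.12 to 0.24). Tbr1 had 734 and 756 UMIs, 16.1 and 18.2 CPM, a ratio of 0.18 (0.032 to 0.33), and Neurod6 1240 and 1246 UMIs, a ratio of 0.14 (0.030 to 0.26). Mef2c was lower in the OLE library, at 50183 and 42761 UMIs and a ratio of -0.093 (-0.11 to -0.074). Rorb was at -0.070 (-0.12 to -0.022), Foxp2 at -0.084 (-0.15 to -0.022), Cux1 at -0.043, Cux2 at -0.025 (-0.074 to 0.024) and Neurod2 at 0.044 (-0.073 to 0.16). The values of Cux1 and Foxp2 changed sign when each nucleus weighed alike, to 0.0092 and 0.066. With clusters weighted alike in both libraries, Bcl11b was at 0.073 and Tbr1 at 0.21.

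**Figure D4:**
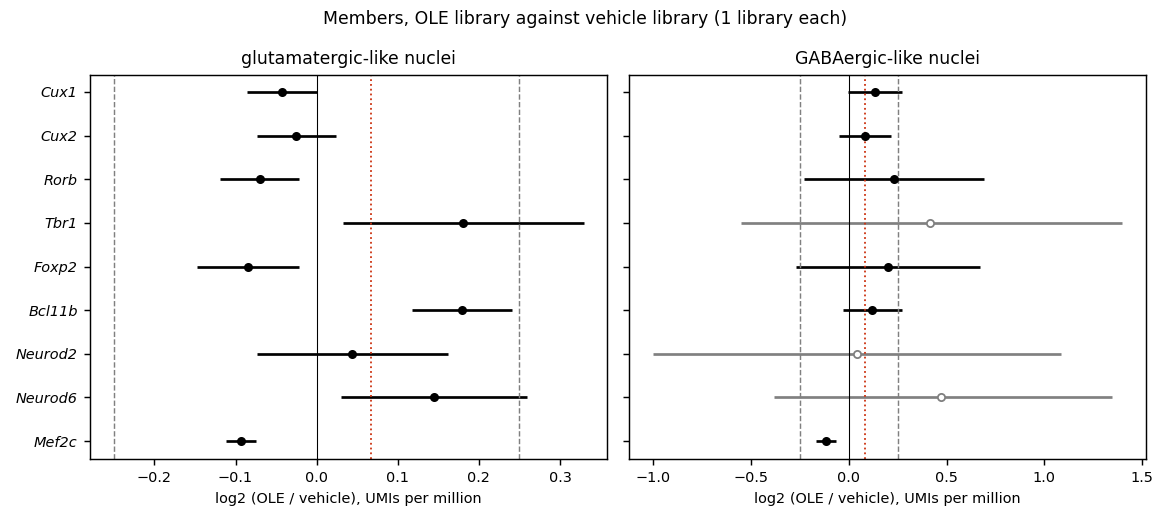
Log2 ratio of OLE to vehicle for the 9 members, in glutamatergic-like (left) and GABAergic-like nuclei (right), from summed UMIs of 1 library each. Bars are exact 95% intervals for counting error, open grey points rest on fewer than 100 UMIs, dashed lines mark 0.25 and the dotted line the median of all genes with at least 100 UMIs. All 9 glutamatergic values lie inside the dashed lines.

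In GABAergic-like nuclei, 0 of the 6 members with at least 100 UMIs were past the same size, against 30% of 9660 genes (25.5% higher and 4.48% lower in the OLE library). Mef2c again had a negative value, -0.12 (-0.17 to -0.064), on 6731 and 5696 UMIs. Cux1 was at 0.14 (-0.0018 to 0.27), Bcl11b at 0.12 (-0.028 to 0.27), Cux2 at 0.082, Foxp2 at 0.20 and Rorb at 0.23, the last 2 on fewer than 90 UMIs per library.

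In the cell types where a member was highest, the libraries were close. Rorb in astrocyte-like nuclei was counted with 1313 and 1462 UMIs, which gave -0.013 (-0.12 to 0.096) on the log2 scale. Foxp2 in vascular leptomeningeal-like nuclei was at 0.017 (-0.11 to 0.14), Mef2c in microglia-like nuclei at -0.011 (-0.12 to 0.098), and Cux1 there at -0.10 (-0.29 to 0.086). In microglia-like nuclei 0 of 3 members with at least 100 UMIs were past 0.25, against 30.6% of 3678 genes, and in leptomeningeal-like nuclei 0 of 3, against 44.7% of 2941. In astrocyte-like nuclei 1 of 3, Mef2c at -0.31 (-0.63 to 0.012), was past it, against 33.0% of 3012 genes (17.6% lower in the OLE library). Mef2c there was at 20.3% and 17.4% of its glutamatergic level, within the range of the glutamatergic markers (8.92% to 57.8% and 6.84% to 49.3%), whose sum went from 16.3% to 13.8%. Oligodendrocyte-like nuclei had 1 of 5 (Rorb at -0.30, -0.83 to 0.23, against 28.9% of 5836 genes, 10.9% lower), OPC-like nuclei 2 of 5 (Foxp2 at -0.39, -0.96 to 0.17, and Mef2c at -0.26, -0.68 to 0.16, against 32.2% of 2584, 16.5% lower) and endothelial-like nuclei 1 of 1 (57.0% of 611, 28.8% higher and 28.2% lower), the last being Mef2c at -0.49 (-0.82 to -0.17) on 176 and 154 UMIs of 21 and 41 nuclei. The summed glutamatergic markers moved the same way in oligodendrocyte-like nuclei, from 20.4% to 17.7% of their glutamatergic level. Rorb there was not read as expression. The marker sum also fell in endothelial-like nuclei, from 49.2% to 23.7%, but not in OPC-like nuclei, at 30.6% and 31.1%. The part of the markers in these ratios was not tested.

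Within single glutamatergic-like clusters more members were past 0.25, mostly where their level was low. Of the 78 pairs of member and cluster with at least 100 UMIs, 28 (35.9%) were past it, 20 higher and 8 lower in the OLE library. Over all genes the share was 25.3% to 31.9% in the 11 clusters. At a mean level under 60 CPM, 21 of 36 pairs were past it, and above that level, which was set after the values were seen, 7 of 42. Their UMIs were often carried by few nuclei, and after the 5 nuclei with the most UMIs of the member were left out of each library, 8 of 16 pairs with an interval off 0 still had one and were still past 0.25. The share over all genes was taken neither by level nor without such nuclei, so these counts are not read as particular to the members.

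Bcl11b was among these 8 in 2 clusters where its level was low. In the superficial Tmc1-Clec18a cluster it had 118 and 200 UMIs, 16.3 (13.5 to 19.5) and 31.0 (26.9 to 35.6) CPM, a log2 ratio of 0.93 (0.59 to 1.27), or 0.89 (0.51 to 1.28) without the top 5 nuclei. In Dnah14-Scube1 it had 102 and 162 UMIs and a ratio of 0.95 (0.58 to 1.32), or 0.68 (0.25 to 1.11). At equal depth the share of nuclei with Bcl11b moved less, from 8.25% (5.41 to 11.9) to 10.6% (7.24 to 14.7) in the first and from 12.3% to 16.3% in the second. In its 4 highest clusters the ratio lay between -0.14 and 0.079, with intervals that included 0.

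Foxp2 had 156 UMIs in the vehicle and 426 in the OLE library in Stac-Erg, 25.6 (21.8 to 29.99) and 52.9 (48.0 to 58.1) CPM, a log2 ratio of 1.04 (0.78 to 1.32). The top 5 nuclei held 41.7% and 44.4% of these counts, 1 nucleus had 52, and without them the ratio was 0.94 (0.59 to 1.31). At 5000 UMIs 13.1% (8.82 to 18.5) of vehicle and 13.6% (9.92 to 18.0) of OLE nuclei had the gene. In the same cluster Mef2c had 4982 and 5161 UMIs, 819 (796 to 842) and 640 (623 to 658) CPM, a ratio of -0.35 (-0.41 to -0.30), or -0.36 without the top 5 nuclei. Of the fine clusters drawn mostly from it, Otof-Dach1 held 160 vehicle and 215 OLE nuclei and Erg-Stac 136 and 129, and the part of this in the ratios was not tested. In Hs3st4-Sulf1, where Foxp2 was highest, it had 3674 and 2790 UMIs and a ratio of -0.17 (-0.24 to -0.095).

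The other 4 pairs were Cux2 in Hs3st4-Sulf1 (42 and 76 UMIs, 1.09), Cux2 in Dnah14-Scube1 (182 and 107 UMIs, -0.48), Rorb in Dnah14-Scube1 (1099 and 749 UMIs, -0.27) and Neurod6 in Igdcc3-Pappa, its highest cluster (176 and 248 UMIs, 0.38, 0.097 to 0.67). By contrast, Rorb in Rspo1-Kcnh5 had 4391 and 3861 UMIs and a ratio of -0.077 (-0.14 to -0.014), and Cux2 there 1096 and 1208 UMIs and 0.25 (0.13 to 0.37), just inside the limit. The fall of Foxp2 counts in Cpa6-Lef1, from 87 to 19 UMIs, rested on few nuclei: the top 5 held 72.4% of the vehicle counts, and the ratio of -1.27 became -0.27 (-1.50 to 0.85) without them. Of the fine clusters drawn mostly from Dnah14-Scube1, Dnah14-Hs3st2 held 176 vehicle and 126 OLE nuclei and Shc4-Fam83f 28 and 41. Rorb was at 254 and 225 CPM in the first and 75.1 and 39.0 in the second. Cux2 was at 39.8 and 32.9 CPM in the first and 23.4 and 2.36 in the second. The part of this mix in the ratios of Dnah14-Scube1 was not tested.

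**Figure D5:**
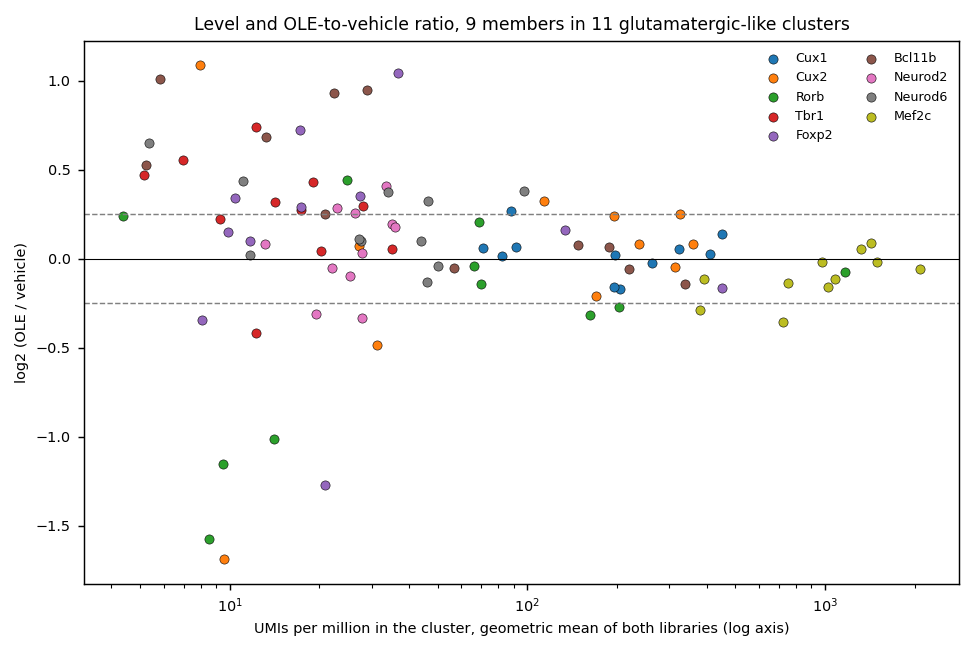
Log2 ratio of OLE to vehicle against level for 9 members in 11 glutamatergic-like clusters. The x axis is the geometric mean of CPM in both libraries on a log axis, each point is 1 member in 1 cluster, colors mark members, and dashed lines mark 0.25. Ratios spread from -1.69 to 1.09 at low levels and from -0.35 to 0.38 above 60 CPM.

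Of 44 other transcription regulators of cortical neurons, 40 had at least 100 UMIs in glutamatergic-like nuclei, and 6 (15.0%) were past 0.25, all higher in the OLE library, below the 23.8% past it and 20.7% higher over all genes, with a median log2 ratio of 0.025 over the 40 and 0.067 over all genes. The highest values were those of Zbtb20, a zinc-finger repressor of hippocampal and cortical development, at 85.2 and 205 CPM (1.27, 1.21 to 1.32), Bhlhe40 at 10.9 and 15.8 (0.55, 0.38 to 0.72) and Bhlhe22 at 3.09 and 4.02 (0.38, 0.050 to 0.72). Among the lowest were those of Rora, the paralog of Rorb, at 1364 and 1235 (-0.14, -0.16 to -0.13), and Bcl11a, the paralog of Bcl11b, at -0.11 (-0.14 to -0.086). Neurod1 and Eomes, which act in precursors, had 0 UMIs in these nuclei in both libraries.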

How the data were processed

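Single-nucleus RNA sequencing libraries (10x Chromium 3′) were made from the pooled entorhinal cortex of 5 mice per treatment. The authors deposited raw UMI counts per gene and nucleus, made with Cell Ranger 3.0.1 on a mouse pre-mRNA reference and analysed in Seurat 4.0.4, per the submitters' processing notes. Here the counts were clustered in Seurat 5.3.0 (sctransform 0.4.2, R 4.3.3) without the 9 genes. Scrublet's own threshold marked under 0.5% of nuclei, so the 5% with the highest scores were left out in each library. Clusters were named from marker lists (at least 3 markers raised 4-fold over the 25th percentile of clusters and found in 10% of nuclei). The rule that left a cluster led by ribosomal, ferritin and mitochondrial genes unnamed was added after the clusters were seen.

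Levels are summed UMIs per 1000000 with exact Poisson intervals, shares have exact Clopper-Pearson intervals, and ratios have exact binomial intervals (scipy 1.17.1). A ratio was compared with a threshold of 0.25 on the log2 scale in genes with at least 100 UMIs. Named genes are the 9 members, the 3 most like each member and the 3 highest and lowest other regulators with at least 200 UMIs, of which 1 is not reported here, like 1 of the fine clusters. The members and lists were chosen with earlier results of these data known. With 1 library per treatment no test was possible.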

Additional observations from a re-analysis of the deposited data

Results flagged for a closer look

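For 3 members, log2 ratios of OLE to vehicle were past 0.25 in opposite directions in different glutamatergic-like clusters, with intervals off 0 on each side. Whether these ratios differ between clusters was not tested. Without the 5 nuclei per library with the most UMIs of the member, such intervals on both sides were left in the clusters named here for Cux2 but not for Rorb or Foxp2. Cux2 was at 1.09 in Hs3st4-Sulf1 and 0.33 in Cpa6-Lef1, but at -0.48 in Dnah14-Scube1, and without those nuclei at 1.05, -0.015 (-0.39 to 0.35) and -0.71. Rorb was at 0.44 in Atp10b-Rph3al, but at -0.27 in Dnah14-Scube1 and -0.31 in Hmga2-Sntb1. Without those nuclei, which held 74.4% and 79.4% of its UMIs in the first and 62.2% and 48.4% in the last, it was at 0.14 (-0.80 to 1.07), -0.33 and 0.12 (-0.31 to 0.55). Foxp2 was at 1.04 in Stac-Erg and 0.72 in Rspo1-Kcnh5, but at -1.27 in Cpa6-Lef1, and without those nuclei at 0.94, 0.60 (-0.025 to 1.24) and -0.27 (-1.50 to 0.85).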

How the results depend on the processing

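In glutamatergic-like nuclei, the count of members past 0.25 was 2 in place of 0 with nuclei thinned to 1000 UMIs (Bcl11b at 0.29 and Neurod6 at 0.56) and 1 with 3 unnamed clusters counted as glutamatergic (Neurod6 at 0.26). After thinning, Bcl11b had 172 UMIs in the vehicle and 205 in the OLE library, and Neurod6 had 51 and 73. The median ratio was -0.092 with median-of-ratios scaling, 0.082 with thinning, 0.055 with clusters weighted alike and 0.048 with each nucleus weighted alike. Cux1 turned to 0.028 with thinning, 0.018 with clusters weighted alike and 0.0092 with each nucleus weighted alike, Foxp2 to 0.099 with thinning and 0.066 with each nucleus weighted alike, Cux2 to 0.082 with thinning and 0.055 with clusters weighted alike, and Neurod2 to -0.094 with thinning and -0.023 with median-of-ratios scaling. In GABAergic-like nuclei Mef2c turned to 0.0066 with thinning. In GABAergic-like nuclei the count was 1 without doublet removal (Rorb at 0.93), 2 with thinning and 1 with each nucleus weighted alike (Foxp2 at 0.35). The 2 with thinning rested on very few UMIs. Rorb was at -0.28 on 9 thinned UMIs in the vehicle and 8 in the OLE library, and Foxp2 at -0.85 on 5 and 3. Over 11 alternatives Bcl11b stayed between 0.073 (clusters weighted alike) and 0.29 (thinning) and Mef2c between -0.16 and -0.032. The highest Foxp2 cluster was 4.73 to 9.12 times and the highest Rorb cluster 3.15 to 7.56 times the class level, the lowest Rorb value without doublet removal.

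Counting the unnamed clusters and weighting nuclei alike were chosen after seeing the data. The planned rule for unnamed clusters added no nuclei. No paired analysis was possible because each treatment has 1 library. Leaving out a replicate was not possible for the same reason.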

Other observations

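In the 4 unnamed clusters, Tbr1, Neurod2 and Neurod6, the shortest of the members (11.185, 4.234 and 3.442 kb), were above their glutamatergic-like level. Tbr1 was at 264% in the vehicle and 243% in the OLE library, Neurod2 at 152% and 130%, and Neurod6 at 205% and 218%. Single glutamatergic markers ran from 57.9% to 317% in the vehicle and from 58.2% to 202% in the OLE library, a range that held these values of the 3 members except those of Tbr1 and Neurod6 in the OLE library. The 6 longer members were at 50.5% to 91.2% of that level. Glutamatergic, GABAergic and oligodendrocyte markers were raised together in the clusters of 2575, 1918 and 805 nuclei.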
